A study of Mus musculus with 11 samples.

Results

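The genes described here are 38 factors of ribosome biogenesis, the making of ribosomes in the nucleolus, out of 26104 features measured in mouse cortex. They were chosen by name: Nop14 for having the smallest p-value among named genes in the comparison of lesioned transgenic with lesioned wild-type mice (TC minus WTC), and the other 37 because they work in the nucleolus. All 38 passed the filter on dim probes. Each was read from its brightest probe, and 37 of them were well above background in all 22 channels; Utp18 was so in 18.

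RNA came from the cortex of the right hemisphere of 22 C57/Bl6J mice aged 5 to 7 months, on 11 Agilent arrays that each paired 1 animal in Cy5 with another in Cy3. WT are intact wild-type mice (n = 6) and WTC are wild-type mice with a cryolesion (n = 5), made with a dry ice pellet held on the brain for 30 s and sampled 3 days later. T are intact GFA2-tTa/TetO-VP16-CREB mice (n = 5) and TC are such mice with the cryolesion (n = 6). In these mice the GFA2 promoter drives the tetracycline transactivator tTA in astrocytes, and tTA switches on VP16-CREB, a CREB protein that activates its target genes without needing a signal. The array measured whole cortex and not sorted astrocytes, so fewer cells of a type and less RNA per cell cannot be told apart. For the Cy3 animals of arrays I, J and K the titles give TC, T and TC, and a second label gives T, TC and T. Titles were followed. The TC mouse of array I lies among intact mice on the first principal component of all features (-28.6, intact mice -43.3 to -23.7). Its summed level of 12 reactive astrocyte markers is 15.18, against 13.15 to 14.29 in intact mice. The Cy3 mice of arrays J and K, T and TC by title, are at -34.0 and 85.6 on that component. Which label is right was not tested. Counts of calls, some ratios and the members' median for TC minus WTC are also given without the TC mouse of array I.

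Ribosomes are built in the nucleolus. RNA polymerase I transcribes the precursor ribosomal RNA, small nucleolar ribonucleoproteins (snoRNPs) guide its chemical modification, and large assemblies fold and cut it while ribosomal proteins join. The small-subunit processome, to which Nop14 belongs, acts on the precursor of the small subunit, and the PeBoW complex on that of the large subunit. The genes of this pathway are known to be raised in growing and dividing cells, in part through the transcription factor MYC.

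Because the transgene is a form of CREB, the bases before the start of each gene were searched for the CREB element. Promoters of 33 members were found in RefSeq (GRCm38.p6), and 250 bases upstream of the start were read for TGACGTCA, the full element, for TGACG, its core, which the full element contains, and for CACGTG, the MYC element, all on both strands. TGACG was present in 13 of 33 members (39.4%), against 19.8% of 27025 genes in the table, 44.6% of the other biogenesis factors with a promoter there and 42.1% of ribosomal protein genes. TGACGTCA was present in 1 member, Noc4l (3.0%, against 1.8% of all genes), and CACGTG in 2, Nop2 and Utp18 (6.1% against 6.9%). The promoter of Nop14 lies at chr5:34660149-34660398 on the minus strand, that of Noc4l at chr5:110653383-110653632 on the minus strand, and that of Gnl3 at chr14:31019132-31019381 on the minus strand. They are shown for the gene that led the choice, for the only member with a full element, and for a member with similar values and no match. Capitals mark TGACG or TGACGTCA on either strand; that of Nop14 starts 15 bases before the gene's start.
Nop14: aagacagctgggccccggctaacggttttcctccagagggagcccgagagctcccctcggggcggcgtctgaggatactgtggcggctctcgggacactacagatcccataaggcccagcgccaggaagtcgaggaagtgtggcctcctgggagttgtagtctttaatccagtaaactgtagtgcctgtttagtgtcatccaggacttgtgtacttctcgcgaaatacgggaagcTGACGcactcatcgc
Noc4l: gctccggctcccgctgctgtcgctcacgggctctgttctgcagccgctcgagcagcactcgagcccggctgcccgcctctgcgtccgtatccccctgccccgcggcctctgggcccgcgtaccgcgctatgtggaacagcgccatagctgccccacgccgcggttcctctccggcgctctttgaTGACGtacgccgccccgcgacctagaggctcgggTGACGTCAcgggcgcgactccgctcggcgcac
Gnl3: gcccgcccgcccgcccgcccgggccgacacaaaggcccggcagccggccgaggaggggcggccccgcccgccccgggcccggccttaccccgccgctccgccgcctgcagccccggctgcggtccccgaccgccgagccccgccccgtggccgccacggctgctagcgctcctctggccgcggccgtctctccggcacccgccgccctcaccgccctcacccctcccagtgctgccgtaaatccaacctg

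Nop14, a scaffold protein of the small-subunit processome, was measured by a single probe. Its log2 levels in intact wild-type mice ran from 8.73 to 9.30 with a median of 8.90, and in the 5 intact transgenic mice they were 9.00, 9.06, 9.20, 9.08 and 8.86 on arrays D, E, F, I and J. In the 5 lesioned wild-type mice they were 9.15, 8.58, 8.04, 8.45 and 7.57 on arrays A, B, K, L and M, and in lesioned transgenic mice they ran from 8.44 to 9.21 with a median of 8.96. The WTC mouse of array A lay within the intact range, the other 4 WTC mice lay below every intact mouse, and TC and WTC overlapped. The mice of arrays K and M were the lowest in both lesioned groups, the TC mice at 8.55 and 8.44.

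The fitted TC minus WTC log2 ratio of Nop14 was 0.62 ± 0.09 (SE), a 1.53-fold difference, and it was the value that chose the gene. It is given here with no test. On the 3 arrays that paired both groups the log2 ratios were 0.52, 0.55 and 0.87 on arrays K, L and M. Just inside it in order of p stood 2 probes without a gene symbol (log2 ratios 0.70 and 0.50), and just outside it Gnpnat1, an enzyme of hexosamine synthesis, at 0.41. Nop14 thus had rank 3 of all features in order of p and was first of those with a symbol. Other contrasts share these animals and are also given as descriptions. The log2 ratio of Nop14 was -0.28 ± 0.10 for WTC minus WT and 0.07 ± 0.10 for TC minus T. For intact mice, T minus WT, it was 0.26 ± 0.09, higher on all 3 arrays that paired them. This value comes from the same fit, with the same estimate of spread, that chose the gene. It is also given with no test.

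**Figure D1:**
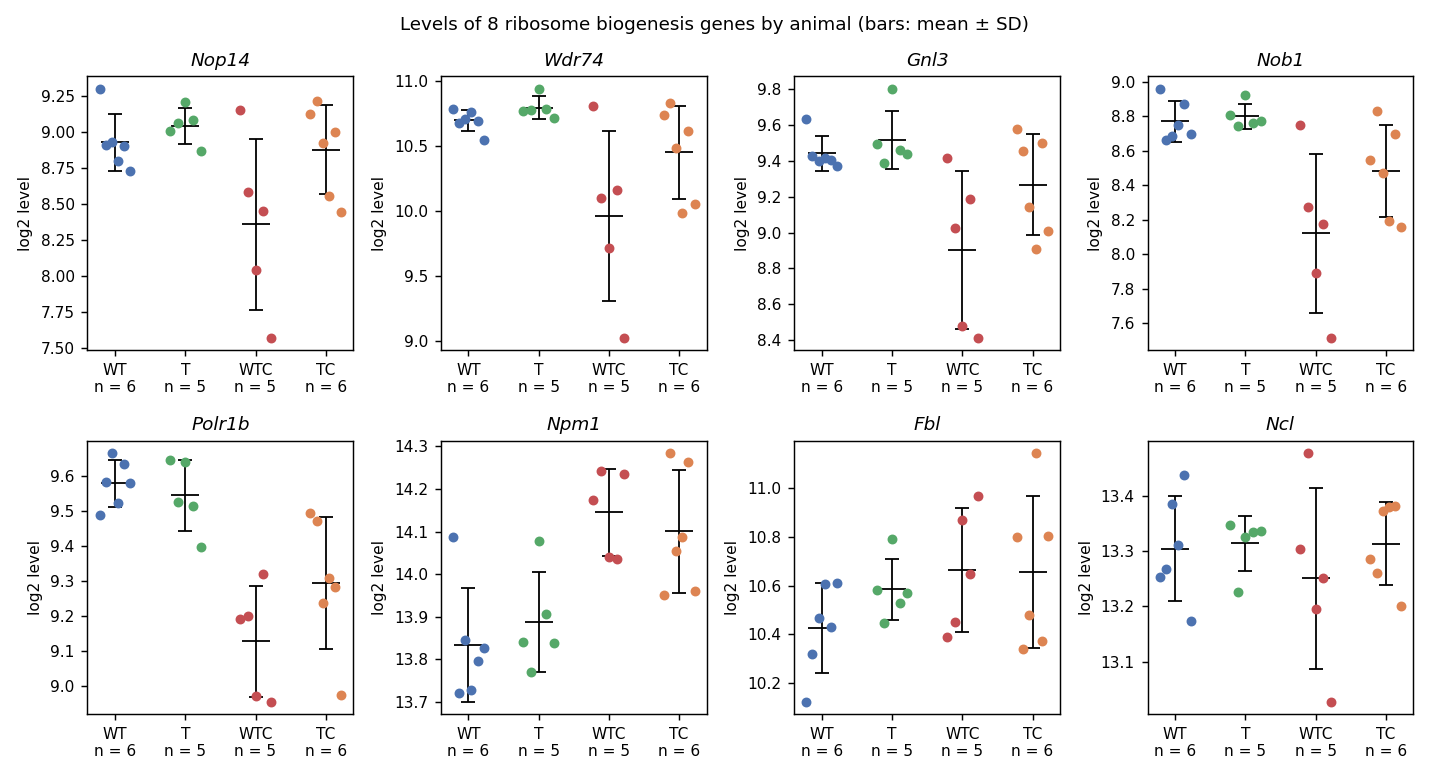
Log2 levels of 8 members in each of the 22 animals (points), by group, with the mean and SD as bars. The WTC mice are spread widely for Nop14, Wdr74, Gnl3 and Nob1, with 1 mouse within the intact range or close to it. Ncl, by the brighter of its 2 probes, differs little between groups.

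The comparison of lesioned transgenic with lesioned wild-type mice asks what VP16-CREB changed after injury. None of the 38 members passed an adjusted p of 0.05 in limma (0 of 26104 features passed; percent of features called, 0), and the smallest adjusted p among them was 0.13. At an unadjusted p under 0.05, 9 members were higher, or 8 without Nop14, and 2 lower, where 6.11% and 8.68% of all features were. The median log2 ratio of the members was 0.12, with 24 of 38 above 0, against -0.02 over all features; without Nop14 it was 0.12, with 23 of 37 above 0. With arrays centred on their median in place of loess it was 0.32, with 34 of 38 above 0 (all features 0.08), without array K it was 0.06, and on arrays A to F alone, which shared a slide and hold 1 TC mouse, it was -0.04. The 17 members that were higher on all 3 arrays of this pairing were 44.7% of the list, against 12.5% of all features. Nop14, which this contrast chose, is among the 17. None was lower on all 3, against 15.3%. These array counts were chosen after the values had been seen. The members that led after Nop14 were the nucleolar GTPase Gnl3 (nucleostemin), the late small-subunit endonuclease Nob1 and the large-subunit factor Wdr74.

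Gnl3 had levels of 9.41, 9.03, 8.48, 9.19 and 8.41 in the WTC mice of arrays A, B, K, L and M, and from 8.91 to 9.58 with a median of 9.30 in TC mice. Its log2 ratio was 0.44 ± 0.09 (adjusted p = 0.13). Nob1 had levels of 8.75, 8.27, 7.89, 8.17 and 7.52 in the WTC mice, and from 8.16 to 8.83 with a median of 8.51 in TC mice. For both genes the mice of arrays K and M were the lowest in each of the groups, and the groups overlapped. In the TC mice of arrays K and M, Gnl3 was at 8.91 and 9.01 and Nob1 at 8.19 and 8.16. The log2 ratio of Nob1 was 0.42 ± 0.10 (adjusted p = 0.16). Wdr74 was 10.81, 10.10, 9.71, 10.16 and 9.02 in the WTC mice, and 9.98 to 10.83 in TC mice with a median of 10.55. Its log2 ratio was 0.52 ± 0.14 (adjusted p = 0.19), again with overlap and with the WTC mouse of array M lowest.

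In the other direction stood Noc3l, a large-subunit export factor, at -0.41 ± 0.16, Rrp12, a factor of late small-subunit maturation, at -0.30 ± 0.11, and Polr1a, the largest subunit of RNA polymerase I, at -0.25 ± 0.12 (adjusted p 0.29, 0.27 and 0.38). Noc3l levels were 9.68, 9.71, 10.27, 9.92 and 10.83 in WTC mice and 9.34 to 10.28, median 9.76, in TC mice. Rrp12 levels were 8.83, 9.36, 10.10, 8.97 and 10.18 in WTC mice and 8.66 to 10.15, median 8.91, in TC mice. The mice of arrays K and M were high for Rrp12 in both groups.

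By role, for the 11 processome genes the median log2 ratio was 0.13, with 8 above 0, and for the 10 large-subunit genes it was 0.18, with 7 above 0. The 3 box C/D snoRNP genes, which guide methylation of ribosomal RNA, were all below 0, with a median of -0.07: the methyltransferase Fbl was at -0.07 ± 0.10 and Nop58 at -0.08 ± 0.10. For Fbl the 95% interval ran from -0.30 to 0.17, and for Ncl, nucleolin, from -0.13 to 0.27. The 5 box H/ACA genes, which guide pseudouridylation, had a median of 0.12, led by the assembly factor Nolc1 at 0.28 ± 0.09 (adjusted p = 0.22).

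**Figure D2:**
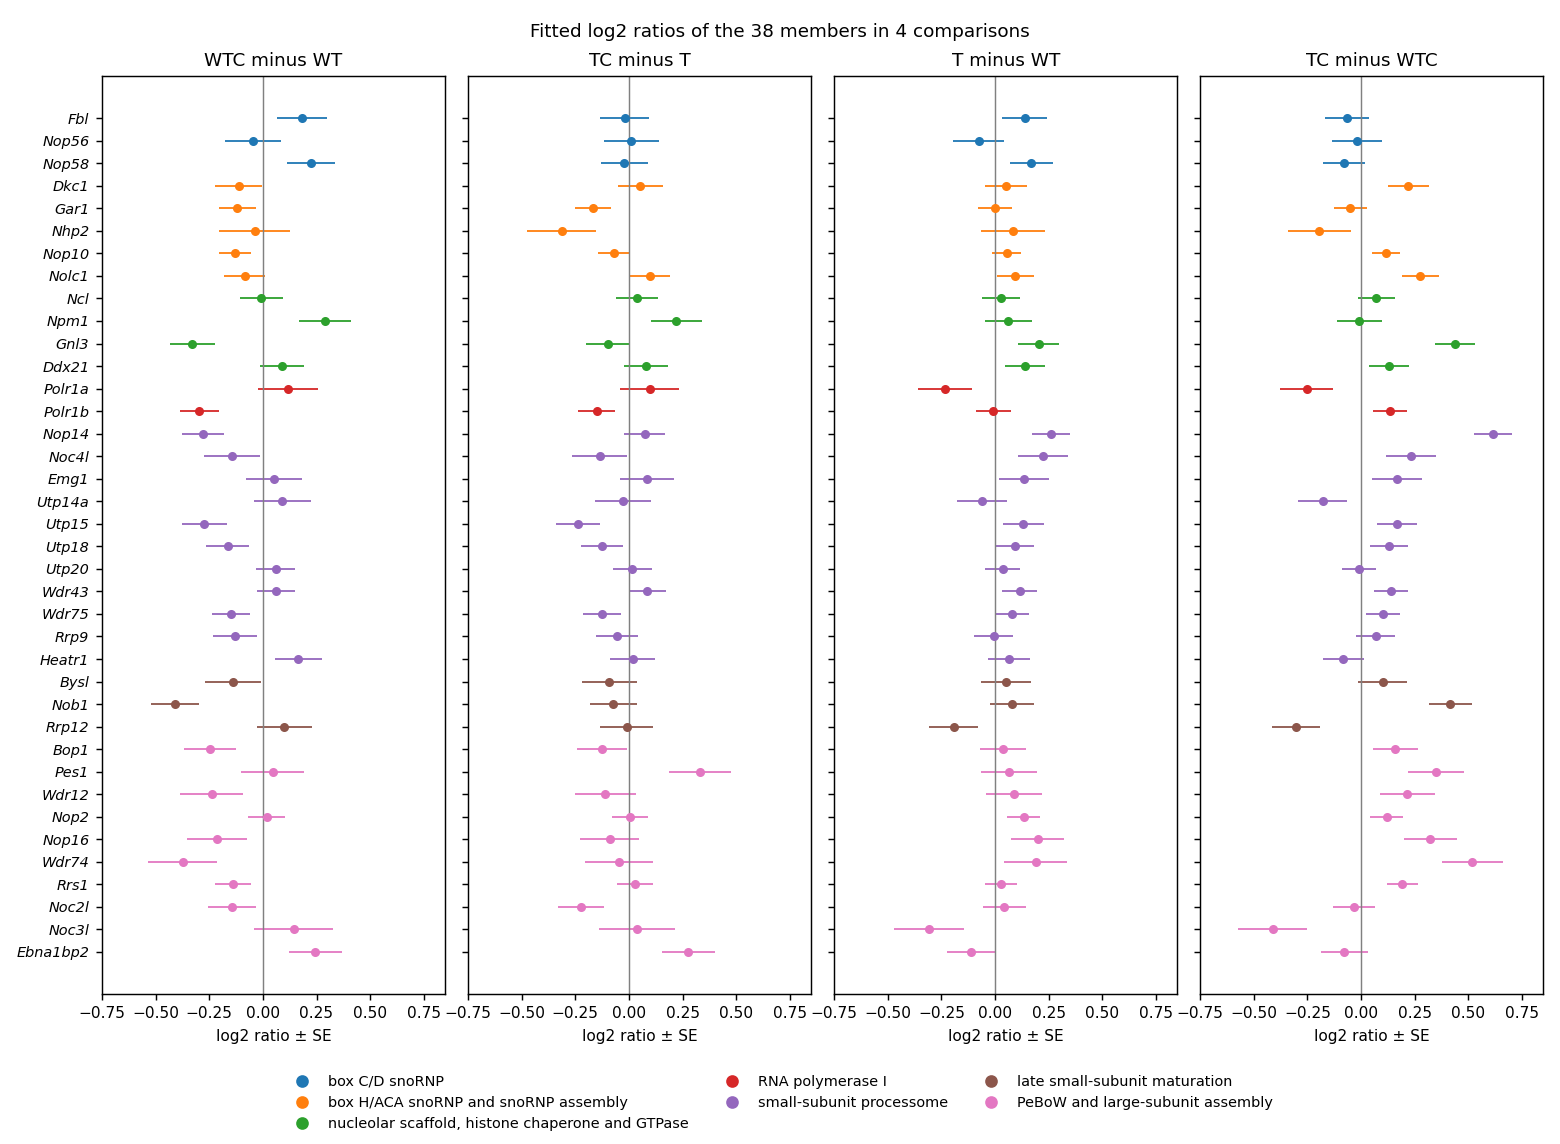
Fitted log2 ratios (points) and standard errors (bars) of the 38 members in 4 comparisons, coloured by role. Nop14, at 0.62, has the highest value for TC minus WTC and Noc3l, at -0.41, the lowest.

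The lesion in wild-type mice, WTC minus WT, asks what the injury itself changed. In the ratio fit 0 of 38 members passed (background 0.0230%). At an unadjusted p under 0.05, 1 was higher and 6 lower, or 5 without Nop14, where 12.7% and 6.93% of features were. The median log2 ratio was -0.10, with 23 of 38 below 0, against 0.00 over all features. With median centring it was -0.27, with 35 below 0 (all features -0.10). On arrays A to F alone, which hold all 6 WT and 2 of the WTC mice, it was -0.002 (all features 0.01). On both arrays that paired these groups 11 members were higher (28.9%, against 35.3% of features) and 13 lower (34.2%, against 31.8%), shares near the background. Nob1 led at -0.41 ± 0.11 (adjusted p = 0.12), then Polr1b, the second subunit of RNA polymerase I, at -0.30 ± 0.09 (adjusted p = 0.14), and Gnl3 at -0.33 ± 0.11 (adjusted p = 0.15). In the opposite direction were the histone chaperone Npm1 at 0.29 ± 0.12 (adjusted p = 0.23), the box C/D protein Nop58 at 0.23 ± 0.11 and the large-subunit factor Ebna1bp2 at 0.24 ± 0.12. The 3 probes of Ebna1bp2 disagreed here, at 0.24 for the brightest, which was used, and -0.04 and -0.50 for the others. The 4 probes of Npm1 were at 0.29 for the brightest, which was used, and 0.23, 0.11 and 0.07 for the others.

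Polr1b levels were 9.49 to 9.66 in WT mice, median 9.58, and 9.19, 9.20, 8.97, 9.32 and 8.96 in the WTC mice of arrays A, B, K, L and M. These groups did not overlap. Non-overlap was found for 3 members lower in WTC, Polr1b, Nop10 and Utp15 (background 7.21%), and for 1 higher, Heatr1 (background 9.06%). Npm1 levels were 13.72 to 14.09 in WT mice, median 13.81, and 14.17, 14.24, 14.04, 14.04 and 14.23 in WTC mice. The highest WT mouse, that of array A, reached the lowest WTC mice. Fbl was 10.12 to 10.61 in WT mice, median 10.45, and 10.39, 10.45, 10.87, 10.65 and 10.97 in WTC mice, with overlap. Nop58 was 10.16 to 10.46 in WT mice, median 10.33, and 10.66, 10.50, 10.55, 10.66 and 10.24 in WTC mice, of which that of array M lay inside the WT range. By role, all 5 box H/ACA genes were below 0, with a median of -0.11, and 2 of 3 box C/D genes above it, with a median of 0.18.

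A fit on the separate channels also uses differences between arrays (25987 features). All 6 WT mice were on the slide of arrays A to F, with 2 of the 5 WTC mice. The other 3 WTC mice were on the second slide, so these differences mix lesion with slide. The fit called 14 members for WTC minus WT. The 4 that rose were Npm1, Nop58, Heatr1 and Ebna1bp2, where 14.2% of features rose, and the 10 that fell were Nop10, Gnl3, Polr1b, Nop14, Utp15, Utp18, Nob1, Bop1, Wdr12 and Wdr74, where 12.1% fell. Polr1b was at -0.40 ± 0.08 (limma adjusted p = 0.002), Nob1 at -0.58 ± 0.14 (adjusted p = 0.0067) and Npm1 at 0.30 ± 0.08 (adjusted p = 0.013). Nop14 is among the calls but shares its animals with the contrast that chose it. The same fit called 0 members for TC minus T (background 4.70% higher and 2.72% lower) and 0 for TC minus WTC (0.115% and 0.0231%).

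Other error models moved these counts. With array as a random block the count for WTC minus WT was also 14 (background 14.2% and 12.2%). When the TC mouse of array I was left out it was 16, of which 12 fell (background 16.0% higher and 16.1% lower), and 1 member, Polr1b, fell for TC minus T (7.99% and 4.49%). With array weights 7 were called for WTC minus WT, Npm1 upward and 6 downward (12.9% and 5.90%), and for TC minus WTC 1 (1.33% and 0.816%). That 1 is Nop14, chosen by its p in this same contrast, so the call is no test of it, and 0 of the other members were called. For TC minus WTC the fit with array as a random block gave Nop14 a log2 ratio of 0.56 over all animals and 0.51 once that mouse was dropped, and a median of the members of 0.11 in both cases.

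The lesion in transgenic mice, TC minus T, gave 0 of 38 calls (background 0) in the ratio fit. The smallest adjusted p among members was 0.41, and 2 were higher and 1 lower at an unadjusted p under 0.05 (6.95% and 4.98% of features). The median log2 ratio was -0.02, with 21 of 38 below 0. On both arrays of this pairing 7 members were higher (18.4%, against 29.2% of features) and 15 lower (39.5%, against 30.9%). Pes1, a PeBoW subunit, was at 0.33 ± 0.14, Ebna1bp2 at 0.28 ± 0.12 and Npm1 at 0.22 ± 0.12. Their dimmer probes were at 0.10 for Pes1, 0.11 and -0.08 for Ebna1bp2, and 0.23, 0.21 and 0.20 for Npm1. The processome protein Utp15 was at -0.24 ± 0.10, the large-subunit factor Noc2l at -0.22 ± 0.11 and the box H/ACA protein Gar1 at -0.17 ± 0.09. Non-overlap was found for 2 members lower in TC, Utp18 and Bop1 (background 2.86%), and for none higher (background 2.06%). Utp15 levels were 7.92, 7.98, 8.18, 8.07 and 8.14 in the T mice of arrays D, E, F, I and J and 7.42 to 7.96, median 7.77, in TC mice, so the groups overlapped by the mouse of array C.

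The other members that led in this comparison overlapped too. Pes1 was 11.22, 11.20, 11.19, 10.92 and 10.56 in the T mice of arrays D, E, F, I and J and 10.55 to 11.49, median 11.13, in TC mice. Ebna1bp2 was 12.18, 12.13, 12.57, 12.43 and 12.33 in T mice and 12.37 to 12.79, median 12.63, in TC mice. For Ebna1bp2 only the T mice of arrays F and I reached the TC range. Noc2l was 11.62, 11.47, 11.24, 11.32 and 11.40 in T mice and 10.96 to 11.34, median 11.14, in TC mice, where the T mice of arrays F and I again lay inside. Gar1 was 12.43, 12.48, 12.55, 12.64 and 12.63 in T mice and 12.36 to 12.55, median 12.45, in TC mice.

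Between intact mice, T minus WT, 0 of 38 members passed (background 0). At an unadjusted p under 0.05, 1 was higher and 0 lower, where 0.992% and 1.93% of features were. That 1 was Nop14, which the same fit chose, and without it 0 were higher and 0 lower. The median log2 ratio was 0.07, with 29 of 38 above 0, against 0.00 over all features. On all 3 arrays of this pairing 7 members were higher (18.4%, against 13.3% of features) and 3 lower (7.89%, against 15.7%). After Nop14 came Noc4l, a processome partner of Nop14, at 0.22 ± 0.12 and Gnl3 at 0.20 ± 0.09, and on the other side Noc3l at -0.31 ± 0.16, Polr1a at -0.23 ± 0.13 and Rrp12 at -0.19 ± 0.11 (adjusted p = 0.98 for all 5). Polr1a levels were 10.25 to 10.65 in WT mice, median 10.50, and 10.27, 10.31, 10.47, 10.42 and 10.24 in T mice, with overlap. Noc4l was 10.03 to 10.26 in WT mice, median 10.18, and 10.43, 10.32, 10.21, 10.21 and 10.26 in T mice, where only those of arrays D and E lay above every WT mouse. Ncl was 13.17 to 13.44 in WT mice and 13.35, 13.23, 13.32, 13.33 and 13.34 in T mice, with overlap. Its 2 probes disagreed here, at 0.03 for the brighter, which was used, and -0.18 for the other. For the difference of both lesion effects they were at 0.04 and 0.31.

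The difference of both lesion effects, (TC minus T) minus (WTC minus WT), asks whether the injury response depended on genotype. No member passed (0 of 38, background 0), and the smallest adjusted p was 0.81. At an unadjusted p under 0.05, 2 members were higher, or 1 without Nop14, and 0 lower, where 2.93% and 2.45% of features were. The median was 0.035, with 24 of 38 above 0, and with median centring 0.22, with 35 above 0 (all features 0.08). Nob1 was at 0.34 ± 0.13, Wdr74 at 0.33 ± 0.18 and Gnl3 at 0.23 ± 0.12, while Nop58 was at -0.25 ± 0.13, Fbl at -0.20 ± 0.13 and the box H/ACA protein Nhp2 at -0.28 ± 0.19. Nop14, described only, was at 0.35 ± 0.11. Nhp2 levels were 13.09 to 13.72 in WT mice, 13.63, 13.50, 13.44, 13.68 and 13.71 in T mice, 13.43, 13.59, 13.50, 13.76 and 13.36 in WTC mice and 12.91 to 13.64 in TC mice. All 4 groups overlapped, and the lowest TC mouse was that of array I. Without that mouse, the fit with array as a random block put Nhp2 at -0.16 ± 0.13. The separate-channel fit of all mice put it at -0.25 ± 0.16.

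The lesioned mice differed more among themselves than the intact ones. The median SD of a member's level was 0.25 in WTC and 0.19 in TC mice, against 0.10 in WT and 0.10 in T mice; over all features it was 0.24, 0.24, 0.14 and 0.13. Of the 38 members, 18 had their lowest level of all 22 animals in the WTC mouse of array M, and 7 their highest there; over all features these shares were 19.7% and 16.6%. On the first component of all features, that mouse had the highest value, 104.9.

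**Figure D3:**
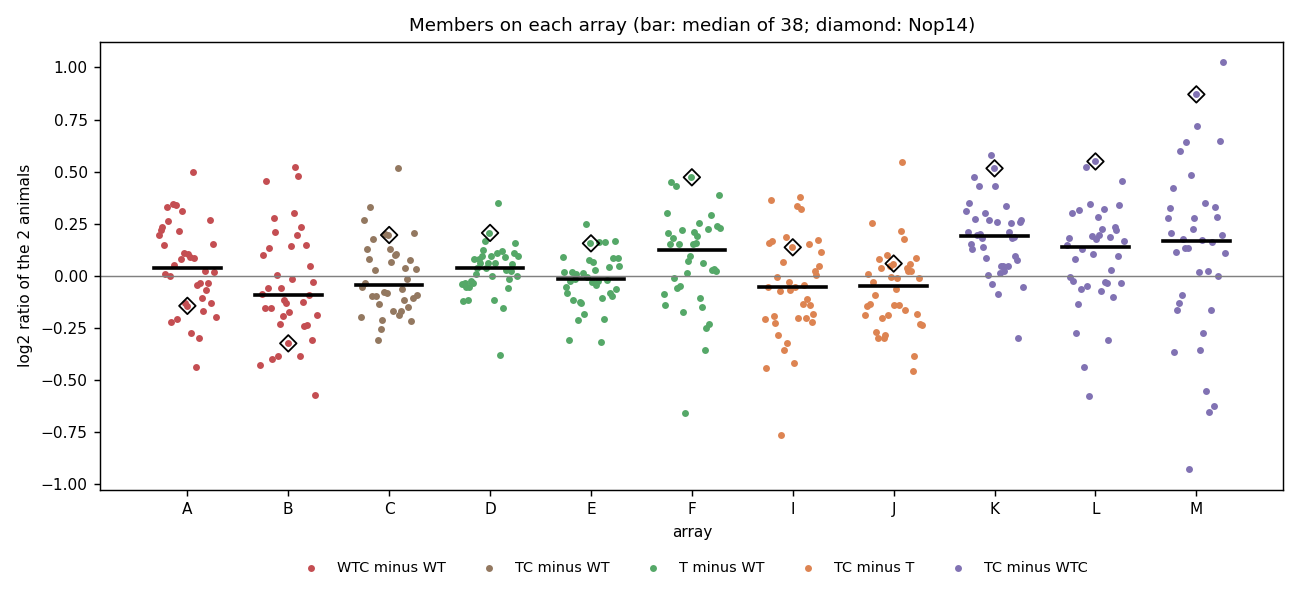
Log2 ratios of the 38 members on each of the 11 arrays (points), coloured by the pair of groups, with their median as a bar and Nop14 as a diamond. Nop14 is above 0 on arrays K, L and M and below 0 on A and B, and the medians of arrays K, L and M are 0.19, 0.14 and 0.17.

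Marker genes of other cells differed along with these comparisons, and their part in the members' values was not tested. The summed level of 11 macrophage markers was 13.69 to 14.54 in WT, 14.07 to 14.49 in T, 15.14 to 17.23 in WTC and 14.48 to 16.91 in TC mice. That of 18 markers of dividing cells was 13.09 to 13.48, 13.26 to 13.64, 14.65 to 15.84 and 13.38 to 15.66. The TC mouse of array I alone gave that 13.38, and the other 5 TC mice were at 14.29 or above; its macrophage sum was 14.62, and the lowest, 14.48, came from another TC mouse. For TC minus WTC, all 11 striatal markers (median -1.75) and all 10 choroid plexus markers (median -1.91) were below 0. For T minus WT both lists were also wholly below 0 (medians -1.33 and -0.92), as were all 10 oligodendrocyte markers (median -0.40). In the lesion contrasts, WTC minus WT and TC minus T, all striatal markers were below 0 (medians -0.80 and -1.43). All choroid plexus markers were above 0 there (medians 1.82 and 0.99). With the striatal markers as a covariate the members' median TC minus WTC log2 ratio was 0.07, and with the choroid plexus markers 0.09. All 6 TC mice were male by Y-linked genes, against 4 of 6 WT, 4 of 5 T and 4 of 5 WTC mice, and with a sex term the median was 0.13. Arrays A to F and I to M were on separate slides, and the second held no WT mouse. Within the second, with 5 TC and 3 WTC mice, the members' median TC minus WTC log2 ratio was 0.12 and the ratio of Nop14 0.63. Within the first they were -0.04 and 0.34, which rest on 1 TC and 2 WTC mice that shared no array.

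The rest of the pathway was read from lists chosen by function. Of 81 other ribosome biogenesis factors, 0 passed in any comparison of the ratio fit. The separate-channel fit called 1 of 80 upward and 11 downward for WTC minus WT (14.2% and 12.1% of features), and 0 in the other comparisons. For TC minus WTC, 56 of 81 were above 0 (69.1%, against 44.4% of features) with a median of 0.07. At an unadjusted p under 0.05, 17 were higher and 0 lower, where 6.11% and 8.68% of features were, led by Tbl3 at 0.41, the helicase Ddx47 at 0.43 and Rrp8 at 0.29. For WTC minus WT, 53 of 81 were below 0 with a median of -0.06, led by Las1l at -0.31, the helicase Ddx56 at -0.25 and the GTPase Gnl3l at -0.53. Among 9 measured subunits and factors of RNA polymerase I, Polr1e was at 0.54 ± 0.12 and Polr1c at 0.23 ± 0.08 for TC minus WTC (adjusted p 0.13 and 0.25). In the MYC network, 0 of 10 passed in the ratio fit, and for WTC minus WT 5 were above 0 and 5 below. Myc was at 0.65 ± 0.24 and its relative Mycn at -0.59 ± 0.17, and of the MYC antagonists Mxd3 was at 0.86 ± 0.27 and Mxd1 at -0.38 ± 0.08. The separate-channel fit called 2 of the 10 upward and 4 downward for WTC minus WT (14.2% and 12.1% of features). For TC minus T it called 0 upward and 2 downward (4.70% and 2.72%).

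The 76 measured cytosolic ribosomal proteins form the protein part of the ribosome itself. Their median had the opposite sign to that of the members for WTC minus WT, TC minus T and TC minus WTC, while both lists held genes on each side of 0. For WTC minus WT, 74 of 76 were above 0 with a median of 0.23, and 31 were higher and 0 lower at an unadjusted p under 0.05, where 12.7% and 6.93% of features were. None passed in the ratio fit; Rplp0 led at 0.70 ± 0.17. In the separate-channel fit 26 of 71 rose and 0 fell, where 14.2% of features rose. For TC minus T, 68 of 76 were above 0 with a median of 0.11, and for TC minus WTC 56 were below 0 with a median of -0.07. The difference between the lists was not tested.

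**Figure D4:**
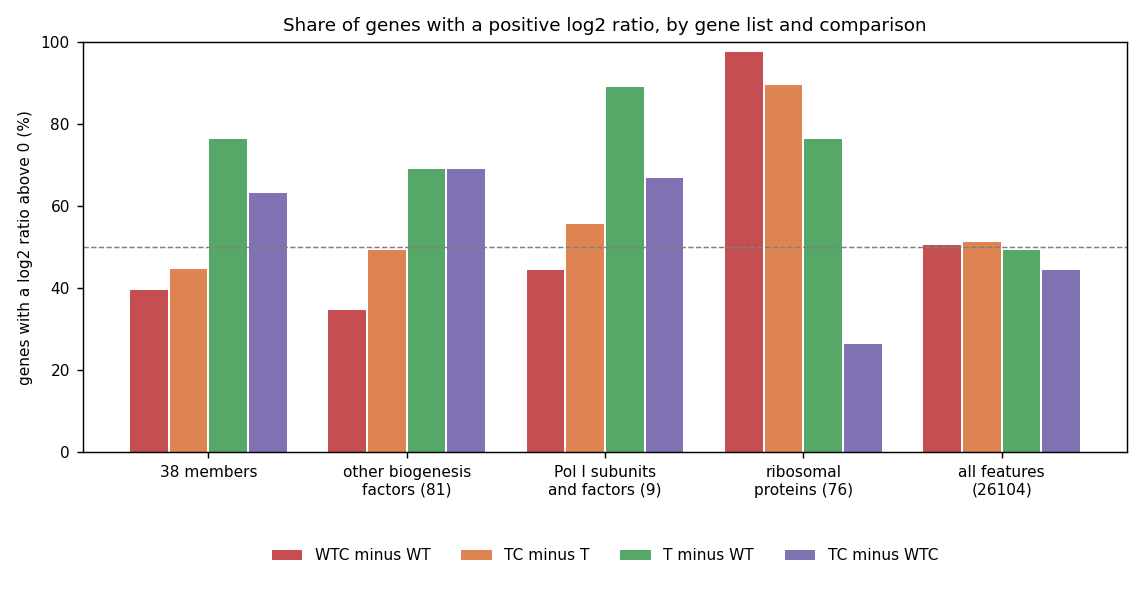
Share of genes with a log2 ratio above 0 in 4 comparisons, for the 38 members, 3 lists of the pathway and all 26104 features; the dashed line marks an even split. Ribosomal proteins stand at 97.4% for WTC minus WT, where the members stand at 39.5%.

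The authors' deposited table gave its own log2 ratios and adjusted p-values for the same arrays. For TC minus WTC, 10 members passed upward in the authors' deposited table (Dkc1, Gnl3, Nop14, Noc4l, Utp15, Utp18, Nob1, Wdr12, Nop16 and Wdr74), where 10.3% of features did, and 1 downward, Noc3l, where 6.17% did. This is the contrast that chose Nop14, and without it 9 passed upward. For TC minus T, the authors' deposited table had 0 members past the threshold (2.40% of features upward and 0.502% downward). Nop14 stood in the authors' deposited table at 0.97 for TC minus WTC, -0.95 for WTC minus WT and -0.11 for TC minus T. The sign matched that of the ratio fit, made from the same arrays, in 36 of 38 members for TC minus WTC, 30 for WTC minus WT and 28 for TC minus T.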

How the data were processed

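Levels of mouse cortex RNA were measured on 11 two-channel arrays (22 mice). The authors deposited Agilent Feature Extraction 10.7.3.1 output, per the file headers, with linear median intensity values of spot and background, not normalized. Its LogRatio is a log10 ratio per the file headers and served as an alternative. A results table with log2 ratios and adjusted p-value columns, also from the authors, was read except for the damaged p-value column of WTC minus WT.

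Intensity was background-corrected with normexp (offset 50), loess-normalized within arrays and averaged over spots in limma 3.58.1 under R 4.3.3. A probe had to stand clear of background in 5 or more of the 22 channels, and the brightest probe of a gene was used (26104 features, 16087 with a symbol). Ratios were fitted with lmFit and eBayes with a dye term (7 residual degrees of freedom; two-sided, Benjamini-Hochberg over all features, threshold 0.05). Levels are channel log2 values after loess and Aquantile, dye effect removed. The script was tested on simulated data.

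The channel 2 source names of arrays I, J and K name other groups than the titles, which were followed. The number of arrays limits the precision. Every channel is a separate mouse, and p-values rest on the variation between mice.

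Members and lists were chosen with earlier results of these data known. Levels by animal are given for Nop14, Polr1a, Polr1b, Fbl, Ncl and Npm1 and for members among the 3 smallest p in a direction of a comparison. The plan named mean signals; the files hold medians. Alternatives were other backgrounds, scalings, filters, probes, dye, slide, weights, labels and left-out arrays; covariates, single slides and random array blocks were added after the data were seen.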

Additional observations from a re-analysis of the deposited data

Results flagged for a closer look

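Of 80 sets of levels tested (a gene or the members' median in a group), 7 had 1 animal standing apart by Dixon's criterion, which chance flags in about 1 in 20 groups. The WT mouse of array A was highest of its group for Nop14 at 9.30 (next 8.93), for Npm1 at 14.09 (next 13.85) and for Gnl3 at 9.63 (next 9.43), and lowest for Nhp2 at 13.09 (next 13.49). The T mouse of array F was highest for Gnl3 at 9.80 (next 9.50) and for the median level of the members at 10.64 (next 10.44). The T mouse of array E was lowest for Ncl at 13.23 (next 13.33).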

How the results depend on the processing

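Counts of members called changed with the error model. With array weights 7 members were called for WTC minus WT (12.9% of features higher and 5.90% lower) and 1 for TC minus WTC (1.33% and 0.816%). That 1 is Nop14, which this contrast chose, so the call is no test. The separate-channel fit (14.2% of features higher and 12.1% lower) and that with array as a random block (14.2% and 12.2%) each called 14 for WTC minus WT. When the TC mouse of array I was left out, 16 were called (16.0% and 16.1%), and 1 for TC minus T (7.99% and 4.49%). Leaving out 1 array at a time gave 0 member calls in every comparison. Of 26104 features, 1239 were called higher and 199 lower for WTC minus WT without array I, and 1211 and 365 without array K. The members' medians ran from -0.13 to -0.07 (WTC minus WT), -0.04 to 0.01 (TC minus T), 0.05 to 0.10 (T minus WT), 0.06 to 0.14 (TC minus WTC) and -0.03 to 0.06 (difference of lesion effects). Median centring moved the members' median to -0.27 (WTC minus WT), 0.32 (TC minus WTC) and 0.22 (difference of lesion effects; all features -0.10, 0.08 and 0.08), and slide 1 alone, with 1 TC mouse, gave -0.037 for TC minus WTC. The cause was not tested.

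Nop14 ranged from 0.34 (slide 1) to 0.85 (deposited log ratio) for TC minus WTC and from -0.53 to -0.23 for WTC minus WT. Against the SD of its level among WT mice (0.20), 3 of 32 and 4 of 31 alternatives moved it, and 2 of 31 moved the difference of lesion effects (0.09 and 0.55). For TC minus T it turned to -0.094 (separate channels), -0.034 (striatal covariate), -0.143 (slide 1), -0.099 (random block) and -0.168 (random block with the TC mouse of array I left out). Also reversed were Ebna1bp2 for WTC minus WT over all probes (-0.10), Noc3l with the striatal covariate (0.058 for T minus WT, 0.112 for TC minus WTC) and Fbl on slide 1 (0.045, difference of lesion effects). Animals of 1 array were paired in the ratio fit itself. By replicate number, no paired analysis was possible because these numbers only name the animals.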
